A study of Caenorhabditis elegans with 18 samples.

Results

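In young mothers of Caenorhabditis elegans carrying rde-11(hj37), 107 genes held at least 2 times the small RNA (sRNA) level of the wild-type strain N2, with 1 read per 1e6 added to both, without gaining sRNAs in the same way in all 4 meg-3 meg-4 lines of the series. They were chosen from the 42048 gene rows of the rde-11 table by a rule on measured values. The mean of the 2 rde-11 libraries had to be at least 20 reads per 1e6 (RPM; the unit is written fpm in the file headers), and this mean plus 1 RPM had to be at least 2 times the N2 mean plus 1 RPM, a quotient called the ratio here. The same ratio had to be below 2 in at least 1 of the 4 meg-3 meg-4 lines. Genes of microRNAs, piRNAs, long intergenic RNAs, histones and of several large families, with elt-7, crtc-1 and glh-2, were left out by name. In all 114 genes passed both thresholds, 5 of them were left out by name, and the genes C07G3.8 and nas-36 were left out because their ratio reached 2 in all 4 lines. The difference between rde-11 and N2 is therefore given as a description, with no test.

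The series measured sRNAs and messenger RNAs in whole worms grown at 20 C, in 9 groups of 2 libraries. The young mothers were fed HT115 bacteria with the empty RNAi vector L4440, and their groups were N2 and rde-11(hj37) for sRNAs, and N2 and meg-3(ax3055) meg-4(ax3052), strain JH3475, for mRNAs. The mixed populations were fed NA22 bacteria, and their sRNA groups were N2 and 4 double mutants that share meg-3(ax3055) and carry meg-4(ax3052), meg-4(ax4310), meg-4(ax4311) or meg-4(ax4312), called lines 1 to 4 here. Lines 2, 3 and 4 are strains JH3672, JH3673 and JH3674. One label of line 2 gives young mothers as its stage, against its title and source, which give a mixed population, so stage is uncertain for that line. Nothing in the labels says that replicates were separate cultures, so p-values measure the spread between these libraries, which may be technical. In whole worms, fewer cells of a type and less RNA per cell cannot be told apart.

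In C. elegans a double-stranded RNA is cut by Dicer, its strands are loaded onto the Argonaute RDE-1, and RNA-dependent RNA polymerases then copy the target messenger into abundant secondary small RNAs that are antisense to it and begin with G. RDE-11, a zinc finger protein, acts with RDE-10 between these steps: the complex associates with the target messenger and is needed for the full amount of secondary small RNAs in RNAi by feeding and at some endogenous targets of the Argonaute ERGO-1. The polymerases, Argonautes and mutator proteins that make and hold secondary small RNAs are shared among several pathways, and a large share of germline genes carries them. MEG-3 and MEG-4 are disordered proteins of the P granules, the germ granules of the early embryo.

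The sRNA libraries of young mothers held 4.26 and 4.85 M reads (M stands for 1e6) in N2 and 4.06 and 4.93 M in rde-11, at which 20 RPM stands for 81.3 to 98.5 reads. The mixed libraries held 3.82 to 7.47 M reads and the mRNA libraries 22 to 45.2 M. The sRNAs mapping to rde-11 itself were at 658 and 623 RPM in N2 and at 773 and 711 RPM in the mutant. The labels do not describe the hj37 allele, and an sRNA level does not check it. The partner gene rde-10 stood at 16.2 and 17.3 RPM in N2 and at 14.5 and 16 RPM in the mutant. In the N2 mRNA libraries every marker of oocytes, sperm, intestine, body wall muscle, neurons and hypodermis was detected. But 0 of 3 hypodermis markers and 1 of 3 neuron markers were above a scaled signal of 10. In young mothers, summed sRNAs of intestine markers were at 57 and 52 RPM in N2 and 35 and 33 RPM in rde-11. Those of neuron markers were at 50 and 49 RPM in N2 and 32 and 30 RPM in rde-11. Those of muscle markers were at 22 and 16 RPM in N2 and 15 and 14 RPM in rde-11. Hypodermis sums, below 1 RPM, were lower too. Oocyte and sperm sums overlapped between genotypes. The part of a tissue or stage difference in the choice of genes was not tested.

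Of the 107 genes 105 are protein-coding and 2, rncs-1 and F44E7.15, are noncoding in the RefSeq annotation of WBcel235. None of the 105 lies next to another of them in the order of protein-coding genes. Neighbours of the 2 noncoding genes were not checked. No source used here gives the strand setting of the counting, so an sRNA is said only to map to a gene, whichever strand it came from. For the 34 genes that overlap a protein-coding gene in WBcel235 the sRNAs may belong to either gene of the pair.

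**Figure D1:**
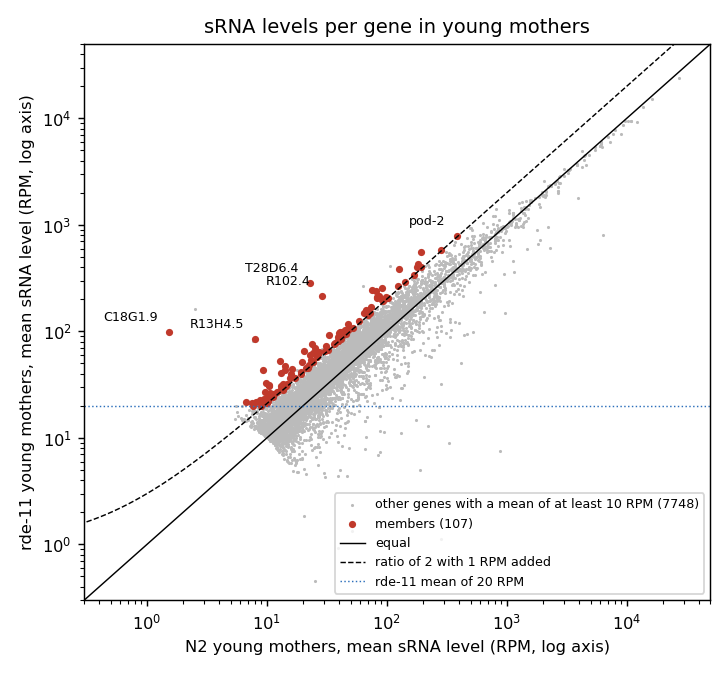
Each point is a gene of the rde-11 table with a mean of at least 10 RPM over its 4 libraries, with the N2 mean on the x axis and the rde-11 mean on the y axis, both in RPM on log axes. The 107 chosen genes (red) lie by construction above the dashed line of the ratio 2 and the dotted line of 20 RPM. Most sit close to the dashed line, while C18G1.9, T28D6.4, R13H4.5 and R102.4 stand clear of it with ratios of 39.2, 12.14, 9.59 and 7.27.

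The gain was moderate at most of these genes and large at a few, as the plot of sRNA levels per gene shows. The ratio ran from 2.01 to 39.2 with a median of 2.26, against a median of 1.16 over the 5776 genes with an rde-11 mean of at least 20 RPM. It was below 2.5 at 77 genes, from 2.5 to under 3 at 18, from 3 to under 5 at 8 and above 5 at 4. The levels spanned a wide range, from an N2 mean of 1.53 RPM at C18G1.9 to 382 RPM at pod-2, with medians of 25.7 RPM in N2 and 65.3 RPM in rde-11. Summed over its 2 libraries, a gene held 14 to 3480 reads in N2 and 181 to 7065 in rde-11. Together the 107 genes took 0.478 and 0.550% of the reads of the N2 libraries and 1.19 and 1.30% of those of the rde-11 libraries.

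At all 107 genes both rde-11 libraries lay above both N2 libraries, which was so for 48.3% of the 7855 genes with a mean of at least 10 RPM. In the authors' deposited table, 101 of the 107 had an adjusted p below 0.05 and were higher in rde-11, against 4.66% of all genes with such a p. The authors' adjusted p was above 0.05 at ppw-1 (0.057), hcp-1 (0.0666), rncs-1 (0.0821), M4.1 (0.117), fib-1 (0.130) and Y71H2AL.2 (0.236). The rule used this contrast, so nothing is read from these counts. Nor is anything read from a separation of the 2 genotypes at a single gene. At the ratio threshold M163.13 and F14D12.1, both at 1.998, fell just outside, and duo-1 and ZK370.8, both at 2.01, just inside. At the level threshold acdh-2, at 19.7 RPM, and F18A1.1, at 19.8 RPM, fell just outside, and ZK1320.9 and ced-8, both at 20.1 RPM, just inside.

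Membership depended on the scaling and on single libraries. The ratio was below 2.5 at 77 of the 107 genes, and the part of closeness to the threshold in these shifts was not tested. When the columns were rescaled by TMM, which matches the bulk of the genes between libraries, 61 of the 107 still met the rule and no other gene did. With N2 replicate 1 left out 84 genes met it, 70 of them among the 107, and without N2 replicate 2 there were 275, including all but 5 of the 107. Without rde-11 replicate 1 there were 272 genes, including 101 of the 107, and without rde-11 replicate 2 there were 76, including 60. A ratio of at least 3 kept 12 genes.

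The largest gain was at C18G1.9, a protein-coding gene to which the files give no further name. Its sRNA level was 1.41 and 1.65 RPM in the N2 libraries and 97.2 and 99.0 RPM in the rde-11 libraries. The 2 rde-11 libraries were nearly equal there, and the N2 means rest on 14 reads in all against 883 in rde-11. T28D6.4 stood at 23.5 and 22.1 RPM in N2 and at 335 and 240 RPM in rde-11. R13H4.5 stood at 5.87 and 10.1 RPM in N2 and at 97.2 and 73.1 RPM in rde-11. At both genes the rde-11 libraries differed from each other by more than the N2 libraries did in RPM. On the log2 scale, with 1 RPM added, replicate 2 minus replicate 1 was -0.09 in N2 and -0.48 in rde-11 at T28D6.4. At R13H4.5 it was 0.69 in N2 and -0.41 in rde-11, so there the N2 libraries differed more.

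R102.4, the fourth of the genes with a ratio above 5, held 31 and 26.2 RPM in N2 and 236 and 192 RPM in rde-11. The 4 genes do not overlap a protein-coding gene in WBcel235. Next came gem-1, a transporter of the monocarboxylate family, with 8.22 and 10.3 RPM in N2 and 41.3 and 45.7 RPM in rde-11. F02E8.4 had 9.39 and 16.3 RPM in N2 and 41.1 and 64.9 RPM in rde-11. At the further genes of the 12 with the largest ratio, sqv-4, mrp-4, C03E10.3, tpa-1, clh-3 and shw-1, the ratio lay between 3.03 and 3.25.

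**Figure D2:**
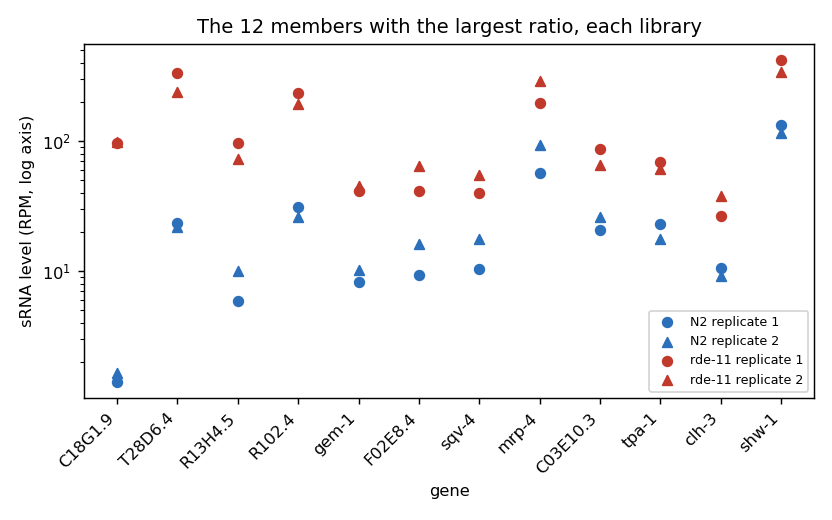
Each point is 1 library of young mothers, with the sRNA level in RPM on a log axis for the 12 genes with the largest ratio, N2 in blue and rde-11 in red, replicate 1 as circles and replicate 2 as triangles. At every gene both red points lie above both blue points, as at all 107. The gap is widest at C18G1.9 (1.41 and 1.65 RPM against 97.2 and 99.0 RPM).

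Of the genes of the RNAi machinery and the P granules, 1 was among the 107. The lists of exogenous RNAi and RNA uptake genes, mutator genes and RNA-dependent RNA polymerases, Argonautes, ERI complex genes, nuclear RNAi genes and P granule proteins together hold 66 genes with an rde-11 mean of at least 20 RPM. The 1 member is 1.52% of them, close to the 1.85% that the 107 make of all 5776 such genes. It was ppw-1, an Argonaute needed for RNAi by feeding in the germline. Its sRNAs were at 8.22 and 12.2 RPM in N2 and at 18.7 and 26 RPM in rde-11, a ratio of 2.09. The genes of these lists with at least 20 RPM in rde-11 had median ratios of 1.42 for 14 exogenous RNAi genes, 1.43 for 10 mutator and polymerase genes, 1.37 for 13 Argonautes, 1.14 for 11 ERI genes, 1.48 for 17 nuclear RNAi genes and 1.36 for 10 P granule genes. For 4 examples of ERGO-1 class targets, where loss of RDE-11 is known to lower secondary small RNAs, the median ratio was 0.452. The list of ERGO-1 targets held none of the 107. Nor did the lists of oocyte and eggshell, sperm, yolk, muscle, neuron, intestine, skin, ribosomal protein, heat shock, pathogen response, glutamine-rich, neuropeptide and nucleolar and small noncoding genes. Genes with an rde-11 mean of at least 20 RPM were few on most of these lists. They numbered 20, 4, 0, 3, 6, 0, 3, 41, 7, 1, 16, 4 and 60, in that order. With a share of 1.85% over all such genes, nothing is read from these absences.

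For 60 of the 107 genes a function is well enough known to sort them into 7 groups, which were made after the values were seen. Cell division genes with maternal roles formed a group of 8 with ratios of 2.02 to 2.34. The microtubule-binding protein gene zyg-9, needed for long spindle microtubules in the embryo, stood at 155 and 204 RPM in N2 and at 346 and 460 RPM in rde-11. The gene hcp-1, for a kinetochore protein of the CENP-F kind, stood at 160 and 223 RPM in N2 and at 327 and 478 RPM in rde-11. Replicate 2 was the higher library in both genotypes at both genes. The others of the group were mcm-6 (replicative helicase), smc-5 (repair of DNA by an SMC complex), npp-15 (nuclear pore), zyg-12 (link of the centrosome to the nucleus), cyb-2.2 (a B-type cyclin) and tbcd-1 (tubulin folding). The close paralog cyb-2.1 makes the assignment of reads to cyb-2.2 uncertain.

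Chromatin and transcription genes formed a group of 9 with a median ratio of 2.14. It included dpy-21, dpy-26 and sdc-1, which act in dosage compensation, the lowering of X expression in hermaphrodites, and ceh-39, a homeobox gene that signals the dose of X. The gene sdc-1 stood at 67.6 and 60.4 RPM in N2 and at 158 and 138 RPM in rde-11, a ratio of 2.29. The gene lin-15B, a repressor of germline genes in the soma, stood at 103 and 92.7 RPM in N2 and at 227 and 182 RPM in rde-11. In contrast to zyg-9, replicate 1 was the higher library in both genotypes at these 2 genes. The remaining genes were let-418 (a Mi-2 chromatin remodeller), dot-1.2 (a DOT1-type methyltransferase), unc-62 (a Meis-type homeodomain protein) and nfya-1 (a subunit of NF-Y).

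The 6 RNA genes had ratios of 2.03 to 2.48. The gene fib-1, for the nucleolar methyltransferase fibrillarin, stood at 140 and 194 RPM in N2 and at 267 and 414 RPM in rde-11. The noncoding RNA rncs-1, which forms a long double-stranded helix that binds Dicer, stood at 9.63 and 10.3 RPM in N2 and at 15.5 and 27.2 RPM in rde-11. The spread between the rde-11 libraries of rncs-1 was wide. The group also held ppw-1, adr-1 (a double-stranded RNA-binding ADAR protein), panl-2 (a deadenylase subunit) and etr-1 (an RNA-binding protein of muscle).

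Signalling genes formed a group of 10 with ratios of 2.06 to 3.08. Among genes of Wnt signalling were the ligand gene mom-2, the Dishevelled genes dsh-1 and dsh-2, and pry-1, which encodes the Axin of the beta-catenin destruction complex. The gene pry-1 had one of the highest sRNA levels, with 285 and 277 RPM in N2 and 653 and 507 RPM in rde-11. The group's largest ratio, 3.08, was at tpa-1, a protein kinase C gene, with 23.2 and 17.7 RPM in N2 and 68.9 and 61.3 RPM in rde-11. As at all 107 genes, both rde-11 libraries of tpa-1 were above both N2 libraries. The remaining genes were let-413 (epithelial polarity), ptc-1 (Patched), pkn-1 and pak-1 (kinases downstream of small GTPases) and gpa-1 (a G protein alpha subunit).

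Genes of membrane traffic, transport and the cytoskeleton formed a group of 10 with a median ratio of 2.4. The kinesin heavy chain gene unc-116 stood at 82.0 and 100.4 RPM in N2 and at 215 and 295 RPM in rde-11. The gene rme-6, an exchange factor for RAB-5 in endocytosis, stood at 90.9 and 94.4 RPM in N2 and at 196 and 188 RPM in rde-11. Its replicates were close to each other in both genotypes. The others were osm-1 (intraflagellar transport), unc-108 (Rab GTPase), rund-1 (dense core vesicles), eat-17 (Rab GAP), apa-2 (clathrin adaptor), atln-1 (atlastin), unc-78 (actin turnover) and ina-1 (alpha integrin).

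The 6 channel and transporter genes had the highest median ratio of the 7 groups, 3.05, with a range of 2.05 to 4.34. The rule used this ratio and the groups were made after the values were seen, so nothing is read from the rank. The potassium channel gene shw-1 stood at 135 and 116.2 RPM in N2 and at 422 and 342 RPM in rde-11. The ABC transporter gene mrp-4 stood at 56.8 and 93.2 RPM in N2 and at 196 and 290 RPM in rde-11. The replicates of mrp-4 differed from each other in both genotypes. The others were gem-1, clh-3 (a chloride channel of oocytes), best-25 (bestrophin) and lgc-53 (a ligand-gated channel).

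Metabolic genes formed the largest group, 11 genes with ratios of 2.04 to 3.25. The gene pod-2, for acetyl-CoA carboxylase, which makes the precursor of fatty acids, had the highest sRNA level of all 107 with 380 and 384 RPM in N2 and 761 and 807 RPM in rde-11. The gene inos-1, for inositol phosphate synthase, stood at 150 and 218 RPM in N2 and at 357 and 506 RPM in rde-11. The gene sqv-4, for UDP-glucose dehydrogenase, a step towards the sugar chains of proteoglycans, stood at 10.3 and 17.7 RPM in N2 and at 40.4 and 55.2 RPM in rde-11. At all 3 replicate 2 was the higher library in both genotypes. The group further held hmgs-1 (mevalonate pathway), gpd-1 (glycolysis), sdha-2 and gas-1 (respiratory chain), gyg-2 (glycogenin), D1005.1 (named acly-1 in RefSeq, ATP citrate lyase), R05F9.6 (pgm-1, phosphoglucomutase) and nkat-3 (kynurenine aminotransferase). The near-identical paralog gpd-4 makes the reads of gpd-1 uncertain.

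The difference between replicates often had the same direction in N2 and in rde-11, at the 107 genes and over all genes. Replicate 2 was higher than replicate 1 in N2 and also in rde-11 at 67 genes, 62.6%, against 40.6% of the 7855 genes with a mean of at least 10 RPM. Replicate 1 was higher in both at 16 genes, 14.95%, against 25.2% of the 7855. Across the 107 genes the log2 difference between replicates in N2 and that in rde-11 had a Pearson r of 0.494 and a Spearman rho of 0.531, and across the 7855 genes 0.404 and 0.420. These are correlations across genes of the same 4 libraries, and genes are not independent replicates. Within replicate 1 the median log2 difference of rde-11 over N2 was 1.17 and within replicate 2 also 1.17, with lowest values of 0.63 and 0.73. The labels do not say that a replicate number marks a shared culture or day, and the part of this shared difference in the choice of genes was not tested.

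**Figure D3:**
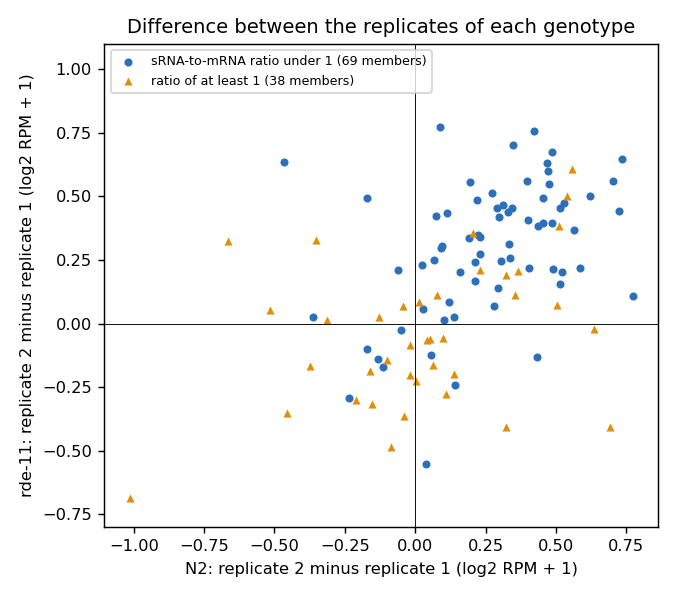
Each point is 1 of the 107 genes, with the log2 difference of replicate 2 minus replicate 1 (1 RPM added) in N2 on the x axis and in rde-11 on the y axis. Blue circles are the 69 genes with more mRNA than sRNA signal in N2 and orange triangles the 38 others. The upper right quadrant, where replicate 2 was higher in both genotypes, holds 56 of the 69 and 11 of the 38. The same split was not made over all genes.

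The genes differed widely in how much sRNA they carried per messenger. The quotient used was the N2 sRNA level divided by the N2 mRNA signal of the same gene, both in young mothers. Whether it depends on gene length was not checked. Each value is a share of its own library, so a quotient of 1 does not mean equal amounts. The quotient ran from 0.0135 at T25F10.6, named clik-1 in RefSeq, to 238 at dot-1.2, with a median of 0.562. T25F10.6 had mRNA signals of 791 and 771 in the N2 libraries, while dot-1.2 had a mean mRNA signal of 0.115 in N2. Split at a value of 1, a split made after the values were seen, 69 genes had a quotient under 1 and 38 a quotient of at least 1. Their median ratios of rde-11 to N2 were 2.25 and 2.3. All 8 cell division genes were under 1, as were all 6 RNA genes and 9 of the 11 metabolic genes, but 3 of the 9 chromatin genes were. Replicate 2 was higher in both genotypes at 56 of the 69 genes and 11 of the 38, and replicate 1 was higher in both at 5 and 11, as the plot of replicate differences shows.

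In N2, the median sRNA level of the 107 genes was 25.7 RPM in young mothers on HT115 and 27.2 RPM in mixed populations on NA22. These values come from tables scaled apart, of worms that differ in stage and food, and no test was made. The sRNAs of the noncoding gene F44E7.15 stood at 86.7 and 79.1 RPM in N2 young mothers and at 208 and 211 RPM in rde-11, but it was listed at 0 in all 10 mixed libraries. Of the young-mother reads of F44E7.15, an unknown part may belong to the overlapping gene F44E7.5. C18G1.9, with the largest gain, held 0.475 and 1.83 RPM in mixed N2 and between 0 and 0.977 RPM in the libraries of the 4 lines.

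The meg-3 meg-4 lines allowed the same genes to be followed in a second kind of mutant with an altered sRNA pool. In line 1 the mRNA of rde-11 itself was low, with a signal of 30.1 and 30.8 in N2 young mothers and 8.28 and 9.64 in line 1, and the sRNAs mapping to rde-11 were at 418 and 359 RPM in mixed N2 against 816 to 3962 RPM in the lines. The 107 genes took a smaller share of reads in the lines than in N2. Their share was 0.625 and 0.492% in the mixed N2 libraries. Line 1 held 0.433 and 0.408%, line 2 held 0.303 and 0.291%, line 3 held 0.312 and 0.337%, and line 4 held 0.286 and 0.274%. In each line both libraries lay below both N2 libraries. With the same scaling the median log2 change over all genes tested was negative too, at -0.34, -0.56, -0.59 and -0.77 in lines 1 to 4. Nothing particular to the 107 genes is therefore read from their smaller share. The 4 comparisons share the same 2 N2 libraries, so they are not independent of each other, and the rule had already removed the 2 genes that gained in all 4 lines.

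Tests used limma on log2(RPM + 1) over all genes with a mean of at least 10 RPM in a table, with Benjamini-Hochberg adjustment, and a gene was called at an adjusted p below 0.05. Of the 107 genes 87 were tested in line 1, 86 in lines 2 and 3 and 83 in line 4. In line 1 sRNAs fell at 15 genes and rose at 4, against a background of 13.8% lower and 3.03% higher over all genes tested. In line 2 they fell at 65 genes and rose at 4, against 52.8% and 5.83%. In line 3 they fell at 62 genes and rose at 6, against 54.4% and 5.83%, and in line 4 they fell at 64 genes and rose at 3, against 66.7% and 5.4%. As shares of the genes tested, the lower calls were 17.2, 75.6, 72.1 and 77.1% in lines 1 to 4.

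The median log2 change of the tested members was -0.37 in line 1, -0.86 in line 2, -0.89 in line 3 and -0.96 in line 4, beside -0.34, -0.56, -0.59 and -0.77 over all genes tested. These medians depend on the scaling. TMM is built to bring the bulk of the genes to no change, and it moved the median of all genes to -0.04, -0.11, -0.05 and -0.18. Whether sRNAs fell in general in the lines was not tested. Under TMM the members had medians of -0.07, -0.40, -0.33 and -0.36. The lower calls were then 10, 19, 16 and 21, each of them also called with the deposited scaling, against backgrounds of 7.71, 9.93, 8.67 and 13.1%. The higher calls were then 7, 7, 9 and 5, against backgrounds of 6.35, 12.2, 16.1 and 13.6%.

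Single libraries also moved these counts. In line 1, 41 genes were lower without N2 replicate 2, against a background of 27.9%. Without line 1 replicate 1 there were 10 lower and 1 higher calls (backgrounds 8 and 1.82%) and without its replicate 2 there were 9 and 2 (6.86 and 1.51%). For line 2 the lower calls were 26 without its replicate 1, where 839 of all 6678 genes tested were lower, and 22 without its replicate 2, where 739 were. The higher calls were 1 (2.25%) and 2 (2.43%). For line 3 the lower calls were 17 and 34, where 629 and 1294 of all 6653 genes tested were lower, and the higher calls 3 (2.25%) and 4 (2.6%). For line 4 the lower calls were 44 (38.5%) and 37 (27.6%), and the higher calls 1 in both cases (2.93 and 2.72%). In these fits an arm has 1 library, which is assumed to vary like the others.

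**Figure D4:**
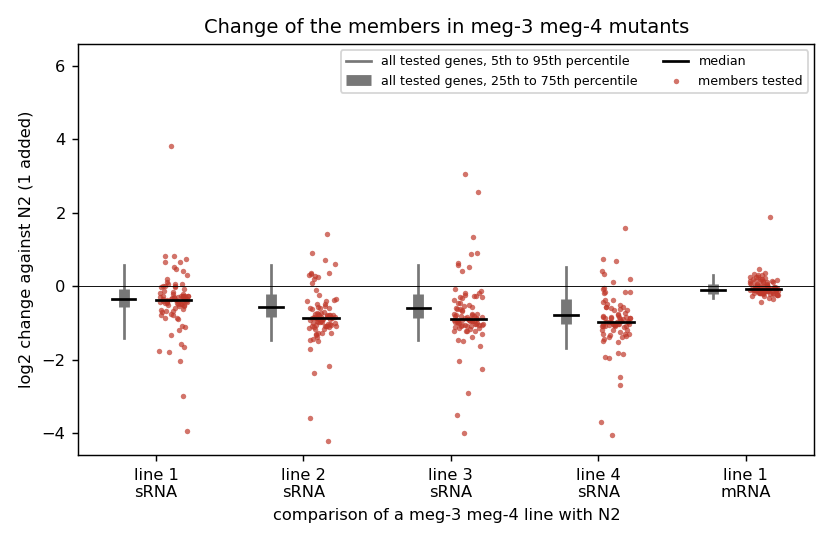
Each red point is 1 of the tested genes among the 107, with its log2 change against N2 (1 added) in the sRNA tables of lines 1 to 4 and in the mRNA table of line 1. Grey bars show the spread of all tested genes (thin from the 5th to the 95th percentile, thick from the 25th to the 75th) and black lines the medians. The red medians are -0.37, -0.86, -0.89, -0.96 and -0.06 beside -0.34, -0.56, -0.59, -0.77 and -0.11 for all genes.

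The deepest loss in the lines was at pry-1, the Axin gene, which had been among the genes with the highest sRNA levels in rde-11. Its sRNAs stood at 211 and 233 RPM in mixed N2. Line 1 held 15.2 and 12.2 RPM, line 2 held 13 and 9.42 RPM, line 3 held 14.3 and 12 RPM, and line 4 held 14.6 and 10.7 RPM. All 8 line libraries were far below both N2 libraries, with log2 changes of -3.93 ± 0.24 (SE), -4.20 ± 0.22, -3.98 ± 0.22 and -4.04 ± 0.23 and limma adjusted p of 3.2e-13, 4.32e-34, 2.74e-19 and 9.4e-28. In young mothers the same gene had means of 281 RPM in N2 and 580 RPM in rde-11. Its mRNA signal, 7.63 and 6.33 in N2 and 9.62 and 10.1 in line 1, was below the level tested. pry-1 overlaps the gene C37A5.11.

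The gene rme-6 lost sRNAs to a similar degree, from 54.4 and 70.9 RPM in mixed N2 to 6.39 and 7.57 RPM in line 1 and to between 3.75 and 4.75 RPM in the libraries of lines 2 to 4. All 8 line libraries were far below both N2 libraries. The log2 changes were -2.99, -3.57, -3.50 and -3.71 in lines 1 to 4, with limma adjusted p of at most 4.75e-10. The mRNA of rme-6 did not pass the test in line 1, with signals of 29.3 and 29.1 in N2 and 29.7 and 31.9 in the mutant (log2 change 0.08 ± 0.08, limma adjusted p 0.452).

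Further genes with lower sRNAs in all 4 lines included kel-8, a BTB and Kelch domain gene, lin-15B, R08E3.3 and C27D8.3. The sRNAs of kel-8 stood at 26.8 and 41.4 RPM in mixed N2 and between 3.04 and 10 RPM in the 8 line libraries, with log2 changes of -2.03, -2.37, -2.91 and -2.70. Those of lin-15B stood at 64.3 and 57.3 RPM in N2 and between 9.03 and 18 RPM in the lines, with log2 changes of -1.75, -2.18, -2.25 and -2.48. R08E3.3 fell from 18.5 and 20.2 RPM to between 3.24 and 5.66 RPM, and C27D8.3 from 118 and 108.1 RPM to between 26.4 and 42.8 RPM. At each of the 4 genes no line library overlapped the N2 libraries, and the calls held under TMM. kel-8 and C27D8.3 overlap protein-coding genes.

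In the groups by function most genes tested were lower in lines 2, 3 and 4 with the deposited scaling, as were 52.8, 54.4 and 66.7% of all genes tested and 75.6, 72.1 and 77.1% of the tested members. All 8 cell division genes were lower in each of these lines, with median log2 changes of -1.0, -1.02 and -1.01, while in line 1 their log2 changes ran from -0.53 to -0.20 and did not pass the test. The sRNAs of zyg-9, for example, stood at 309 and 232 RPM in mixed N2, at 205 and 200 RPM in line 1, and between 134 and 148 RPM in lines 2 to 4. Under TMM scaling zyg-9 was not called in any line, with log2 changes of -0.45, -0.33 and -0.28 in lines 2, 3 and 4. All 9 metabolic genes tested in lines 2 to 4 were lower in each of them with the deposited scaling, as were 2 of 10 in line 1. Of the chromatin genes 7 of 8 were lower in lines 2, 3 and 4 and 3 of 9 in line 1. Under TMM the lower calls in lines 2, 3 and 4 were 2, 2 and 1 of the 8 cell division genes, 3, 2 and 5 of the 9 metabolic genes and 3, 1 and 3 of the 8 chromatin genes. The groups are small and were made after the values were seen, and no difference between a group and the other genes was tested.

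In line 1 the lower calls were mostly at genes with much sRNA per messenger, among the 107 and over all genes. Of the members tested there, 13 of 29 with at least as much sRNA as mRNA signal in N2 were lower, and 2 of 58 with less. Over all genes tested with both values, 26.8% of the 2676 with at least as much sRNA were lower, and 5.16% of the 3679 with less. In line 2 the counts of members were 21 of 30 and 44 of 56, beside 40.3 and 66.2% over all genes in the same classes. In line 3 they were 20 of 31 and 42 of 55, beside 40.1 and 69.4%, and in line 4 they were 21 of 29 and 43 of 54, beside 51.5 and 83.5%. The class with less sRNA per messenger thus had the larger share of lower calls in lines 2 to 4, in members and over all genes. Across the tested members the log2 quotient of sRNA to mRNA and the log2 change had a Pearson r of -0.14, -0.03, -0.02 and -0.10 and a Spearman rho of -0.07, 0.07, 0.05 and -0.03 in lines 1 to 4. Over all genes with both values r was -0.05, 0.11, 0.13 and 0.14, and rho was 0.07, 0.27, 0.29 and 0.24. These are values across genes that share their libraries. A difference between the 2 classes of genes was not tested.

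The sRNAs of 4 of the 87 members tested rose in line 1, 4 of 86 in line 2, 6 of 86 in line 3 and 3 of 83 in line 4, shares near the 3.03, 5.83, 5.83 and 5.4% of all genes tested. The rule had also removed the genes that gained in all 4 lines. H14A12.5 held 19 and 13.6 RPM in N2 young mothers and 49.5 and 38.6 RPM in rde-11. In mixed populations it stood at 11.4 and 9.68 RPM in N2. Line 1 held 114 and 230.0 RPM, line 2 held 17.3 and 18.5 RPM, line 3 held 74.3 and 59.9 RPM, and line 4 held 13 and 14 RPM. All line libraries were above both N2 libraries, but by very different amounts, and the log2 changes were 3.82 ± 0.27 and 2.56 ± 0.23 in lines 1 and 3 (limma adjusted p 9.87e-12 and 8.54e-13), 0.72 in line 2 (0.0186) and 0.33 in line 4, which was not called (0.295). H14A12.5 lies over fum-1, the fumarase gene. Without either library of line 2 the call there was lost (limma adjusted p 0.193 and 0.272).

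R102.4, whose ratio in rde-11 was 7.27, also gained sRNAs in line 3. It stood at 24 and 25.1 RPM in mixed N2. Line 1 held 59 and 33 RPM, line 2 held 34.7 and 28.6 RPM, line 3 held 217 and 204 RPM, and line 4 held 19.8 and 17.5 RPM. The level of line 3 was close to the 236 and 192 RPM of the rde-11 libraries, while line 4 lay below N2. The log2 change was 3.05 ± 0.22 in line 3 (limma adjusted p 1.43e-15) and 0.82 ± 0.26 in line 1 (0.0305). It did not pass the test in line 2 (0.35, adjusted p 0.172) or line 4 (-0.38, 0.138). The call in line 1 was lost without line 1 replicate 1 (limma adjusted p 0.516).

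The noncoding RNA rncs-1 was the one gene of the 107 called higher in every line. It stood at 16.1 and 17.8 RPM in mixed N2. Line 1 held 32 and 26.6 RPM, line 2 held 41.2 and 53.2 RPM, line 3 held 45.2 and 43.9 RPM, and line 4 held 39.5 and 71.9 RPM. Its log2 changes were 0.75, 1.41, 1.34 and 1.6, with limma adjusted p of 0.0423, 1.2e-07, 4.5e-06 and 2.09e-08. Each line library was above both N2 libraries, but the call in line 1 was lost without N2 replicate 1 (0.125) or either library of line 1 (0.364 and 0.196). W06H8.6 rose in lines 2, 3 and 4, with log2 changes of 0.61, 0.89 and 0.69, from 67.4 and 50.3 RPM in N2 to between 80.7 and 118.8 RPM. Its call in line 2 was lost without either library of that line, in line 3 without line 3 replicate 1, and in line 4 without N2 replicate 2 or either library of line 4. Also called higher were F57G12.1 in lines 3 and 4, B0205.1 in line 1, C03E10.3 in line 2 and let-413 in line 3. The calls at F57G12.1, B0205.1 and let-413 were lost without either library of the line concerned, with limma adjusted p of 0.0893 and 0.0846 for F57G12.1 in line 3, 0.143 and 0.0845 in line 4, 0.335 and 0.0813 for B0205.1, and 0.226 and 0.355 for let-413. The call at C03E10.3 was lost without line 2 replicate 1 (0.168).

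**Figure D5:**
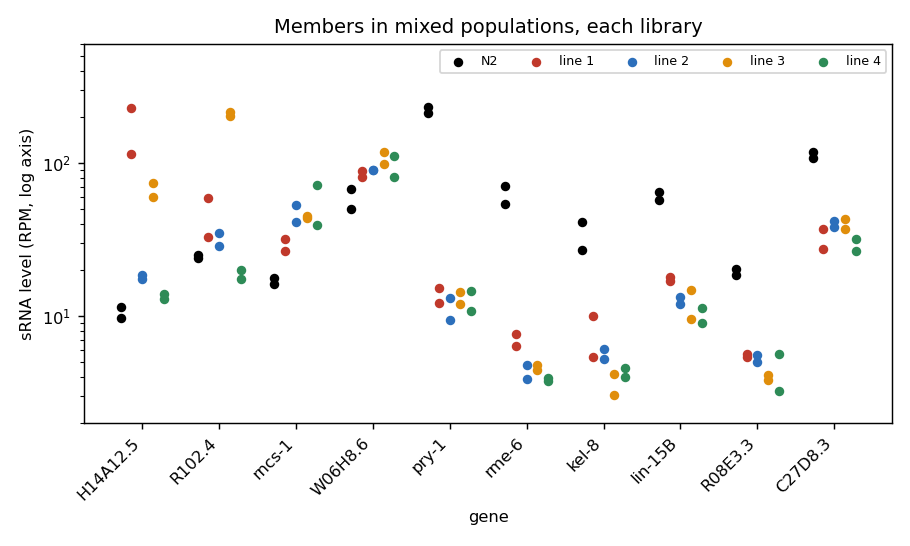
Each point is 1 library of a mixed population on NA22, with the sRNA level in RPM on a log axis for 4 genes that rose and 6 that fell in at least 3 lines or, for R102.4, in lines 1 and 3. N2 (black) is at 211 and 233 RPM for pry-1 with every line between 9.42 and 15.2 RPM, while R102.4 reaches 217 and 204 RPM in line 3 and 19.8 and 17.5 RPM in line 4.

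The mRNA levels of the 107 genes were measured in line 1 young mothers and were not part of the rule. Of the 107 genes 86 had a mean signal of at least 10 and were tested. By limma 6 of them were higher in line 1, against a background of 4.18%, and 7 were lower, against 10.3%. Their median log2 change was -0.06, and that of all genes tested was -0.11. Without either N2 library T10D4.6 was the only higher call by limma (backgrounds 0.223 and 0.315%) and no lower call was left (0.0919 and 0.144%). Without N2 replicate 1 the median log2 change of the members was -0.04, beside -0.13 over all genes tested. Without N2 replicate 2 these medians were -0.05 and -0.09. Without line 1 replicate 1 there were 7 higher and 9 lower calls (6.2 and 8.22%), and without its replicate 2 there were 4 and 4 (4.31 and 6.8%). By edgeR on whole reads recovered from the values 5 were higher and 5 lower (3.93 and 5.76%), and by DESeq2 12 and 3 (10.9 and 2.97%). Oocyte marker genes had a summed signal of 5824 and 5560 in N2 and 4526 and 4511 in line 1, and intestine markers 10695 and 10694 against 12122 and 15047. The part of these in the mRNA changes below was not tested.

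T10D4.6 had by far the largest mRNA change, with a signal of 20.3 and 20.5 in N2 and of 78.6 and 78 in line 1 (log2 change 1.89 ± 0.07, limma adjusted p 9.16e-06). The replicates of each genotype were nearly equal and the groups far apart. Its sRNAs stood at 11 and 16.3 RPM in N2 and at 26.8 and 31.1 RPM in rde-11. The other higher genes changed little, C53D6.6 by 0.48, F57G12.1 by 0.37, R102.4 by 0.34, C27D8.3 by 0.30 and gas-1 by 0.26 on the log2 scale. R102.4 had mRNA signals of 46.0 and 48.3 in N2 and 59.9 and 59.7 in line 1, so both its mRNA and its sRNAs were higher there, at different stages and foods. The respiratory chain gene gas-1 had mRNA signals of 145 and 140 in N2 and 172 and 169 in line 1.

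The lower mRNAs were those of ZK1320.9 (-0.41), cdc-48.2, a gene of the AAA ATPase that extracts ubiquitinated proteins (-0.35), gpd-1 (-0.32), cyb-2.2 (-0.25), gyg-2 (-0.25), B0205.1 (-0.24) and panl-2 (-0.22). The largest of these drops was that of ZK1320.9, with signals of 138 and 127 in N2 and 103 and 95.2 in line 1 (limma adjusted p 0.0189). cdc-48.2 may share reads with its close paralog cdc-48.1, and gpd-1 and cyb-2.2 have such paralogs too, so these 3 are uncertain. Under TMM 5 higher and 4 lower calls were made, with backgrounds of 3.86 and 5.59%.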

How the data were processed

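Small RNAs and mRNAs of whole worms were read from 6 tables of 4 libraries each. The submitters' processing notes name build ce10 and the tools Bowtie2, DESeq2, HISAT2, HTSeq and cutadapt, with no roles. Versions, the annotation and the strand setting are not given in the sources used here. The deposited values are a scaled signal per gene and library, headed fpm in the file headers also for mRNA, whose columns sum to about 1e6. The authors deposited in every table their own log2 fold change and p-values as well. Dividing by the value of 1 read made 100% of values whole within 0.02, so reads and depth could be recovered.

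The members were found by the rule given at the start of the results, and no test was made on that contrast. Members, gene lists and tests were chosen with earlier results of these data known. Elsewhere limma 3.58.1 (R 4.3.3, mean trend) was fitted to log2(value + 1) of genes with a mean of at least 10 in a table, with Benjamini-Hochberg adjustment over all genes tested and calls at 0.05. The added 1 understates the change of low genes. The fits were tested on simulated data. Alternatives were TMM scaling, edgeR 4.0.16 and DESeq2 1.42.0 on recovered reads, another pseudocount, no filter, the replicate number as a block, and each library left out. Names, biotypes and overlaps come from RefSeq's WBcel235 table, matched for 99.3% of rows. Since the build differs, coordinates are not printed, and sequences were not used here.

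Genes named are those with the 12 largest ratios, the 8 highest rde-11 means, members of the lists, up to 6 called mRNAs and up to 5 genes called in the same direction in at least 3 lines per direction, the genes nearest the thresholds, and rde-11 and rde-10. Further genes named by function or for a single line were chosen after their values were seen.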

Additional observations from a re-analysis of the deposited data

How the results depend on the processing

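The number of genes that meet the rule went from 107 to 902 with a ratio of at least 1.5, 12 with at least 3, 66 with an rde-11 mean of at least 50 RPM, 68 with 5 RPM added, 61 with TMM scaling and 76 to 275 with 1 library left out. Requiring the ratio in both same-numbered pairs, a replicate block chosen after seeing the data, gave 70. Counts of genes called moved by more than 1.5 times as follows. In line 1 the higher calls went from 4 to 7 with TMM, edgeR or the replicate block, 1 with no filter on low values and 1 to 5 with a library left out. The lower calls there went from 15 to 8 with DESeq2, 3 with no filter, 34 with the replicate block and 9 to 41 with a library left out. In line 2 the higher calls went from 4 to 7 with TMM, 8 with edgeR, 2 with no filter and 1 to 6 with a library left out, and the lower calls from 65 to 19 with TMM, 20 with edgeR, 10 with DESeq2 and 22 to 66 with a library left out. In line 3 the lower calls went from 62 to 16, 17 and 10 with TMM, edgeR and DESeq2 and 17 to 68 with a library left out, and the higher calls from 6 to 3 to 8. In line 4 the higher calls went from 3 to 5 with TMM, edgeR or DESeq2, 1 with no filter and 1 to 3 with a library left out, and the lower calls from 64 to 21, 21 and 9 with TMM, edgeR and DESeq2 and 37 to 67 with a library left out. In the mRNA table the higher calls went from 6 to 12 with DESeq2, 1 with no filter and 1 to 7 with a library left out, and the lower calls from 7 to 4 with TMM, 3 with DESeq2, 0 with no filter and 0 to 9 with a library left out. The share of all genes called moved with these counts. In line 1 it went from 3.03% higher and 13.8% lower to 5.88 and 7.62% with edgeR, 4.93 and 5.6% with DESeq2, 0.172 and 0.691% with no filter, and 7.02 and 36.5% with the replicate block. In line 2 it went from 5.83 and 52.8% to 12 and 10.1% with edgeR, 12 and 6.21% with DESeq2, and 1.08 and 8.33% with no filter. In line 3 the lower share went from 54.4% to 8.94% with edgeR and 5.59% with DESeq2. In line 4 it went from 5.4 and 66.7% to 13.4 and 13.3% with edgeR, 15 and 5.68% with DESeq2, and 1.11 and 14.6% with no filter. In the mRNA table no filter gave 0.261 and 0.158%. The cause of these shifts was not tested, beyond the smaller number of libraries or the larger number of genes in those fits. Direction was reversed at 2 genes, both in line 4: duo-1 went from -0.50 to 0.10, 0.0930 and 0.28 with TMM, edgeR and DESeq2, and ZK370.8 from -0.56 to 0.0302, 0.0315 and 0.20. Of 106 calls at named genes, 106 held with 5 added, 103 with the replicate block and 71 with no filter on low values. With TMM 64 held, with edgeR 67 and with DESeq2 55. Calls were also lost with any 1 library left out, more of them without a mutant library than without an N2 library. The deviations of same-numbered replicates had correlations across genes between N2 and the mutant of 0.515, 0.078, -0.125 and -0.214 in lines 1 to 4, 0.229 for mRNA and 0.404 for rde-11, with 2 numbers and no label that pairs them. Depth limits the lowest genes: 3 reads stand for 0.402 to 0.785 RPM in the sRNA libraries.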
